A study of Mus musculus with 12 samples.

Results

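Transcripts of 10 cardiac potassium channel genes were followed in primary cardiomyocytes exposed to PBS or to one of 3 cytokines of the interleukin-6 family. The genes were taken by name from the deposited table, which lists 22915 genes, and all 10 were found there: Kcnd2, Kcnd3, Kcnip2, Kcnq1, Kcnh2, Kcnj2, Kcnj3, Kcnj5, Kcnj11 and Kcnk3. The cells came from male C57/Bl6 mice of 12 weeks and were kept in culture. For 24 h in normoxia they received the PBS solvent or a cytokine, which was mouse LIF (leukemia inhibitory factor, mLIF), mouse OSM (oncostatin M, mOSM) or hlOSM, a mutant of OSM made human-like. In mouse cells mLIF signals via the LIF receptor (LIFR), mOSM via the OSM receptor (OSMR) and hlOSM via either receptor. The sample descriptions give a cytokine concentration of 25 ng/mL, while the paper's methods give a lower one. Each condition had 3 libraries, 12 in all, and neither source states whether they came from separate animals, so p-values measure the spread between these libraries only. The means of same-numbered libraries over the conditions were nearly equal in the deposited values, as they would be if differences between replicate numbers had been removed. In that case p-values from the fit without a block, which are those given here unless a block is named, are too small. Cardiomyocytes that have been isolated and cultured lack the load and the neighbors they have in the heart, which limits them as a model of it.

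Potassium channels carry the outward currents that end the cardiac action potential and hold the resting potential of the cell. In the mouse ventricle the fast transient outward current is formed by Kv4 subunits, which Kcnd2 and Kcnd3 encode, together with the accessory protein KChIP2 from Kcnip2. Kcnq1 and Kcnh2 encode the pore subunits of the slow and the rapid delayed rectifier. Inward rectifiers are encoded by Kcnj2 (the classical inward rectifier of the resting potential), Kcnj3 and Kcnj5 (subunits of the acetylcholine-activated channel) and Kcnj11 (the pore of the ATP-sensitive channel), while Kcnk3 encodes a tandem-pore background channel.

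With hlOSM, 9 of the 10 transcripts fell against PBS and Kcnd3 rose. The same count was obtained with mOSM, whereas mLIF lowered 5 transcripts, raised Kcnd3 and left 4 without a call. Of all 13184 genes tested, hlOSM called 37.9% (19.8% lowered and 18.2% raised), mOSM 31.2% (15.8% and 15.4%) and mLIF 9.91% (4.44% and 5.47%). The F test over the 4 conditions passed in all 10 transcripts and in 34.2% of all genes. Median log2 fold changes of the 10 transcripts were −0.40 for mLIF, −0.62 for mOSM and −0.84 for hlOSM, against 0.0004, −0.0043 and −0.0052 over all genes tested. These 3 comparisons share the same PBS libraries. The 10 genes were chosen with earlier results of these data known, so the shares over all genes are given for description and test nothing about the 10. The cytokine libraries lay wholly below PBS in 5 transcripts for mLIF, 8 for mOSM and 9 for hlOSM, against 15.6%, 19.9% and 24.3% of all genes tested, and wholly above in Kcnd3 each time, against 14.7%, 20.2% and 22.7%. Calls rest on a two-sided limma test on log2(normalized count + 1), fitted over all genes and all 12 libraries, with a Benjamini-Hochberg adjusted p under 0.05. A normalized count is the number of reads of a gene after scaling between libraries, rounded by the authors and not divided by gene length.

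**Figure D1:**
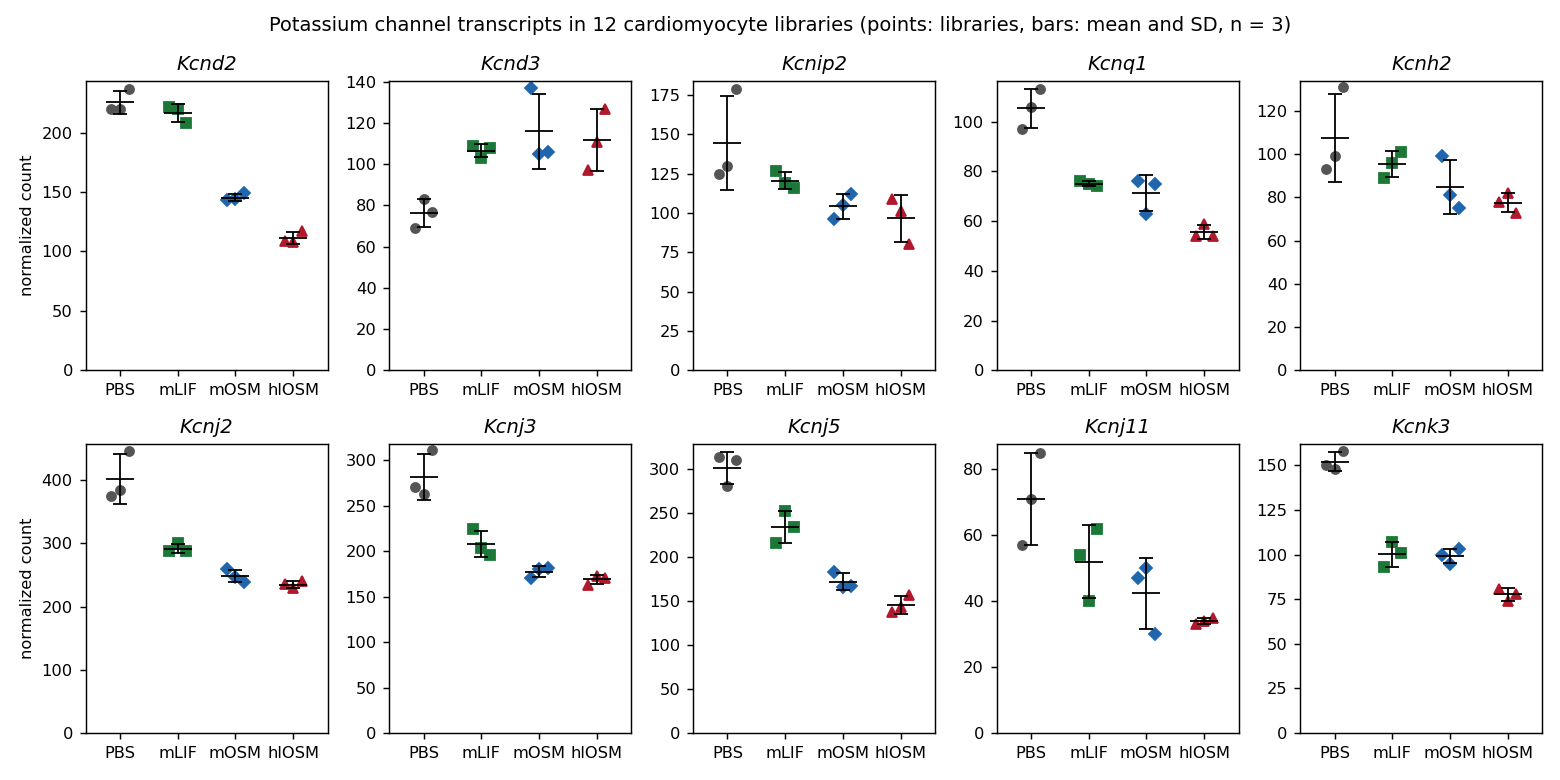
Normalized counts of the 10 transcripts (vertical axes, from 0) in PBS, mLIF, mOSM and hlOSM (horizontal axes). Points are single libraries and bars the mean and SD of 3 libraries. The hlOSM libraries lie below every PBS library in all panels except Kcnd3, where they lie above.

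All 10 transcripts were well above the minimum of 10 normalized counts in each of the 12 libraries, with values from 30 to 447, so that none entered the test only through the condition in which it was high. The totals of the libraries lay between 2745748 and 2911891 normalized counts, which are not numbers of reads, and the depth of reading behind them is unknown. Of 8 cardiomyocyte markers, none was at 0, and their sum was 16569 to 18382 normalized counts in PBS, 14196 to 15832 in mLIF, 12932 to 15184 in mOSM and 13473 to 13932 in hlOSM. In bulk libraries, fewer cells of a type and less RNA per cell cannot be told apart. With each library rescaled to these markers, a choice made after seeing the data, 7 of the 10 transcripts were lowered after hlOSM, 5 after mOSM and 1 after mLIF. In that scaling 5.64%, 4.16% and 0.652% of all genes tested were lowered, and the all-gene median log2 fold changes were 0.33, 0.31 and 0.21. The ventricular marker Myl2 had between 381 and 533 normalized counts, and all 4 ventricular markers were present in every library. Of the 4 atrial markers, Sln and Myl7 did not exceed 3 and 4, whereas Nppa had 133 to 192 and Myl4 25 to 61 normalized counts, so that the list as a whole was not absent.

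Kcnd2 and Kcnd3, the related Kv4 genes that moved in opposite directions with mOSM and hlOSM, are shown first by the sequence around their RefSeq start sites, since each start lies in a stretch rich in CpG. The windows run from 250 bases before to 50 bases after the start, 5′ to 3′ on the gene's strand, from RefSeq's annotation of GRCm38.p6, with CpG in capitals. That of Kcnd2 is chr6:21215096-21215395 on the plus strand and that of Kcnd3 is chr3:105451640-105451939 on the plus strand. The third window, chr11:111065914-111066213 on the plus strand, is that of Kcnj2, the highest of the 10 in normalized counts per full exon length. In it the capitals mark the E-box CACGTG.
Kcnd2: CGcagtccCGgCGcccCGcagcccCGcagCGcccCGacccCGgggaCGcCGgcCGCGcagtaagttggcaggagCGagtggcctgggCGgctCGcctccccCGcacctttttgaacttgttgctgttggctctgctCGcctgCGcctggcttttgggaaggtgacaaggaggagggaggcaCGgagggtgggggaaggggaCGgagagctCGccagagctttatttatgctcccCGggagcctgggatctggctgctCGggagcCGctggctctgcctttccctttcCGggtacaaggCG
Kcnd3: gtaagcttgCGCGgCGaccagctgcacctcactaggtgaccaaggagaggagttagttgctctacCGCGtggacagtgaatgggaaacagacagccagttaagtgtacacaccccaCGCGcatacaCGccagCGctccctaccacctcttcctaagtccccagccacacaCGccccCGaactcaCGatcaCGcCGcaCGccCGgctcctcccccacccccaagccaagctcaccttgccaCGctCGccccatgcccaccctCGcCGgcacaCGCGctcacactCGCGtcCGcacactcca
Kcnj2: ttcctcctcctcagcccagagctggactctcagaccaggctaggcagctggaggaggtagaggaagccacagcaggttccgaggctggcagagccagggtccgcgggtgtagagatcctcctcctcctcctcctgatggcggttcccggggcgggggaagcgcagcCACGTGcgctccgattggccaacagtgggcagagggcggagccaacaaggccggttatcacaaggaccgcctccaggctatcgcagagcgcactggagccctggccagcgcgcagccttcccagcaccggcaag

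The Kcnd2 window held 26 CpG and the Kcnd3 window 25, where 16.9% and 18.4% of the 32851 promoter windows of the same length held at least as many and the median was 7. Windows were at hand for 7 of the 10 genes. Kcnh2, Kcnip2 and Kcnj2 had 19, 18 and 18 CpG, and Kcnj3 and Kcnj5 had 10 each. Their GC content ranged from 57.7% in Kcnj3 to 74.3% in Kcnh2, against a median of 52.7%. Matches were sought on both strands to the STAT core TTCNNNGAA, held by 8.3% of all windows, the AP-1 core TGANTCA (7.81%), the GATA core AGATAA (11.2%), the TATA core TATAAA (13.6%) and the E-box CACGTG (7.15%). The only match in the 7 windows was the E-box of Kcnj2, which begins 84 bases before the start and overlaps no other of these motifs. Start sites in RefSeq and in the deposited table differ for some of these genes, and the Kcnh2 window begins at a start inside the gene as the table gives it.

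Kcnd2 (ENSMUSG00000060882, chromosome 6, 21215503 to 21729805, plus strand, mm10) encodes Kv4.2, the main pore subunit of the fast transient outward current in the mouse ventricle. Its normalized counts were 220, 220 and 237 in PBS and 222, 220 and 208 in mLIF. They were 143, 144 and 149 in mOSM and 109, 108 and 117 in hlOSM. The PBS and mLIF libraries overlapped, the mOSM libraries lay below them, and the hlOSM libraries lay below mOSM. The level in hlOSM was 49.3% of that in PBS, a log2 fold change of −1.01 (SE 0.07, limma adjusted p = 3.48e-10), and the level in mOSM 64.4% (log2 fold change −0.63, adjusted p = 6.22e-07). With mLIF the change was −0.06 with a 95% interval from −0.21 to 0.09 (limma adjusted p = 0.656). Against mLIF, Kcnd2 was lower with mOSM (−0.57, adjusted p = 7.27e-06) and with hlOSM (−0.95, adjusted p = 3.63e-09).

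Kcnd3 (ENSMUSG00000040896, chromosome 3, 105452330 to 105674002, plus strand), which encodes Kv4.3, was the only transcript of the 10 that rose. It had 69, 83 and 77 normalized counts in PBS, 109, 103 and 108 in mLIF, 137, 105 and 106 in mOSM and 97, 111 and 127 in hlOSM. Every cytokine library lay above every PBS library, and the 3 cytokines overlapped. Log2 fold changes were 0.48 (SE 0.11, limma adjusted p = 0.0103) after mLIF, 0.59 (adjusted p = 0.000398) after mOSM and 0.54 (adjusted p = 0.000782) after hlOSM. Between hlOSM and mLIF the difference was 0.06, with a 95% interval from −0.18 to 0.30, and between mOSM and mLIF 0.11, from −0.13 to 0.35. Without replicate 3 of mLIF the rise with mLIF was 0.47 and its adjusted p 0.0502. The antisense transcript Kcnd3os covers 1.72% of the exonic bases of Kcnd3 and had between 3 and 13 normalized counts.

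Kcnip2 (ENSMUSG00000025221, chromosome 19, 45791839 to 45816061, minus strand) encodes KChIP2, a calcium-binding protein that brings Kv4 channels to the surface and shapes their inactivation. Its normalized counts were 125, 130 and 179 in PBS, 127, 119 and 116 in mLIF, 96, 105 and 112 in mOSM and 109, 101 and 80 in hlOSM. The mOSM and hlOSM libraries lay below PBS, where 1 library was high. It fell by 0.45 (limma adjusted p = 0.0075) after mOSM and by 0.57 (adjusted p = 0.000918) after hlOSM on the log2 scale, with a standard error of 0.12. With mLIF the change was −0.24 (95% interval from −0.50 to 0.02, limma adjusted p = 0.224). The fall with mOSM rested on replicate 3 of PBS, since without it the change was −0.29 and the adjusted p 0.0755.

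Set against each other within a library, Kcnd2 and Kcnd3 came closer together with the cytokines. Per exonic kilobase, with exon lengths from GENCODE M21, Kcnd2 stood at 5.53 ± 0.529 (SD, n = 3) times the level of Kcnd3 in PBS. The ratio was 3.78 ± 0.196 (SD, n = 3) for mLIF, 2.37 ± 0.372 (SD, n = 3) for mOSM and finally 1.87 ± 0.196 (SD, n = 3) for hlOSM. The PBS libraries, from 4.93 to 5.93, did not overlap with mLIF, from 3.58 to 3.97, nor those with mOSM, from 1.94 to 2.62, while mOSM overlapped with hlOSM. In mLIF the shift came with a rise of Kcnd3 and no call for Kcnd2, and in mOSM and hlOSM with a rise of Kcnd3 and a fall of Kcnd2. The ratio of Kcnip2 to Kcnd2 was 0.946 ± 0.151 (SD, n = 3) in PBS and 1.29 ± 0.248 (SD, n = 3) in hlOSM, with overlapping libraries.

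**Figure D2:**
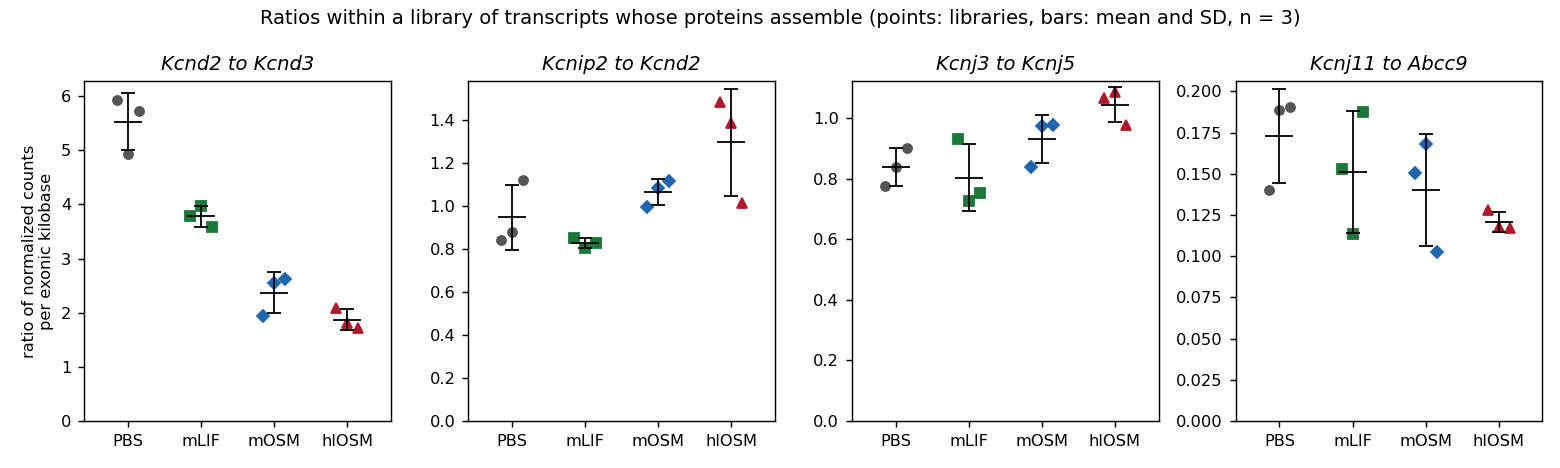
Ratios within a library of normalized counts per exonic kilobase (vertical axes, from 0) for 4 pairs of transcripts, in PBS, mLIF, mOSM and hlOSM. Points are libraries and bars the mean and SD of 3 libraries. The ratio of Kcnd2 to Kcnd3 goes from 5.53 in PBS to 1.87 in hlOSM. The ratio of Kcnj3 to Kcnj5 goes from 0.839 in PBS to 1.04 in hlOSM, with no overlap of these libraries, and is lowest in mLIF at 0.80. The level of Kcnj3 may be too low.

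Kcnq1 (ENSMUSG00000009545, chromosome 7, 143106362 to 143427042, plus strand) had 97, 106 and 113 normalized counts in PBS, 76, 75 and 74 in mLIF, 76, 63 and 75 in mOSM and 54, 59 and 54 in hlOSM. All cytokine libraries lay below PBS, mLIF and mOSM overlapped, and hlOSM lay below either of them. The log2 fold changes were −0.48 (limma adjusted p = 0.00621) after mLIF, −0.56 (adjusted p = 0.00034) after mOSM and −0.91 (SE 0.11, adjusted p = 6.42e-07) after hlOSM. The noncoding transcript Kcnq1ot1, which runs against Kcnq1 from within it, covers 2.96% of its exonic bases. It had between 1183 and 1408 normalized counts and passed the threshold with no cytokine (log2 fold changes −0.04, −0.08 and 0.07, adjusted p from 0.290 to 0.666 from limma). The accessory subunit gene Kcne1 was near the limit of the values, with 5 to 14 normalized counts, and had no call.

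Kcnh2 (ENSMUSG00000038319, chromosome 5, 24319589 to 24351604, minus strand) had the smallest changes of the 10 with mOSM and hlOSM. Its normalized counts were 93, 99 and 131 in PBS, 89, 96 and 101 in mLIF, 99, 81 and 75 in mOSM and 78, 82 and 73 in hlOSM. The hlOSM libraries alone lay apart from PBS, by all being lower. With mLIF the change was −0.16 (95% interval from −0.42 to 0.10). Kcnh2 fell by 0.45 (SE 0.12, limma adjusted p = 0.00606) after hlOSM and by 0.33 (adjusted p = 0.0451) after mOSM on the log2 scale. The call with mOSM was lost with the replicate number as a block (adjusted p = 0.0814). Without replicate 3 of PBS the changes were −0.30 (limma adjusted p = 0.0607) and −0.18 (adjusted p = 0.301), so that neither call of Kcnh2 stood without that library. The call with mOSM was also lost without any one of mLIF replicates 1 to 3, mOSM replicates 2 and 3 or hlOSM replicate 1 (adjusted p from 0.0503 to 0.174), with no filter on low values and with the 6 libraries compared alone. The F test of Kcnh2 (adjusted p = 0.027) did not pass with the block (adjusted p = 0.0611) or without PBS replicate 3, hlOSM replicate 1 or hlOSM replicate 3 (adjusted p from 0.0532 to 0.107).

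Kcnj2 (ENSMUSG00000041695, chromosome 11, 111066164 to 111076821, plus strand), which encodes Kir2.1, led the 10 by level per kilobase of full exon length in PBS. Its normalized counts were 375, 384 and 447 in PBS, 288, 300 and 288 in mLIF, 259, 247 and 239 in mOSM and 236, 229 and 240 in hlOSM. The mLIF libraries lay below PBS and above the other cytokines, and mOSM and hlOSM overlapped. The log2 fold changes were −0.46 (limma adjusted p = 0.000288), −0.69 (adjusted p = 7.98e-08) and −0.77 (adjusted p = 1.11e-08) after mLIF, mOSM and hlOSM, each with a standard error of 0.07. The related Kcnj12, another subunit of the same current, had 83 to 94 normalized counts in PBS and 49 to 69 in hlOSM. It fell by 0.59 (limma adjusted p = 0.000772) after hlOSM and had changes of −0.20 and −0.27 without a call with mLIF and mOSM.

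Kcnj3 and Kcnj5 encode Kir3.1 and Kir3.4, which form the channel that acetylcholine opens through the muscarinic receptor and that is best known from the atria. Kcnj3 (ENSMUSG00000026824, chromosome 2, 55435970 to 55598145, plus strand) had 271, 263 and 311 normalized counts in PBS, 224, 204 and 196 in mLIF, 171, 180 and 182 in mOSM and 163, 173 and 171 in hlOSM. Kcnj5 (ENSMUSG00000032034, chromosome 9, 32314707 to 32344350, minus strand) had 314, 281 and 310 in PBS, 216, 252 and 234 in mLIF, 183, 166 and 167 in mOSM and 137, 143 and 157 in hlOSM. In either gene every mLIF library lay below PBS and above mOSM and hlOSM.

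The log2 fold changes of Kcnj3 were −0.43 (limma adjusted p = 0.00106) after mLIF, −0.66 (adjusted p = 6.97e-07) after mOSM and −0.73 (adjusted p = 1.16e-07) after hlOSM. Those of Kcnj5 were −0.37 (limma adjusted p = 0.0051), −0.81 (adjusted p = 5.52e-08) and −1.05 (SE 0.08, adjusted p = 7.29e-10), and with hlOSM Kcnj5 was at 48.3% of its PBS level. The ratio of Kcnj3 to Kcnj5 per exonic kilobase was 0.839 ± 0.063 (SD, n = 3) in PBS and 1.04 ± 0.0581 (SD, n = 3) in hlOSM, and its libraries did not overlap between these conditions. Of the exonic bases of Kcnj3, 31.1% lie opposite the noncoding gene Gm26794, and without a stated strand setting, reads there cannot be assigned with certainty. Chrm2, which encodes the M2 muscarinic receptor upstream of this channel, went from 893 to 984 normalized counts in PBS to 385 to 420 in hlOSM. Its log2 fold changes were −0.42 (limma adjusted p = 0.00042), −0.97 (adjusted p = 2.86e-10) and −1.23 (adjusted p = 3.83e-12) after mLIF, mOSM and hlOSM. Of the 4 atrial markers, Sln and Myl7 were between 0 and 4 throughout, while Nppa and Myl4 were present and fell after hlOSM (log2 fold changes −0.37, adjusted p = 0.00663, and −0.83, adjusted p = 0.000485). The 4 summed to 236 to 242 normalized counts in PBS, 200 to 228 in mLIF, 171 to 219 in mOSM and 174 to 175 in hlOSM. The part of atrial cells in the values of Kcnj3 and Kcnj5 was not tested.

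Kcnj11 (ENSMUSG00000096146, chromosome 7, 46093953 to 46100764, minus strand) encodes Kir6.2, the pore of the ATP-sensitive channel that opens when cellular energy runs low. It had 57, 71 and 85 normalized counts in PBS, 54, 40 and 62 in mLIF, 47, 50 and 30 in mOSM and 33, 34 and 35 in hlOSM. The hlOSM libraries lay closely together below PBS and mLIF, and mLIF overlapped with PBS. It fell by 0.75 (limma adjusted p = 0.00353) after mOSM and by 1.02 (SE 0.19, adjusted p = 0.000147) after hlOSM on the log2 scale. With mLIF the change was −0.45, with a 95% interval from −0.83 to −0.06 (limma adjusted p = 0.131). Its partner Abcc9, which encodes the sulfonylurea receptor SUR2, stood at 111 normalized counts per exonic kilobase in PBS against 19.3 for Kcnj11, and had 858 to 1017 normalized counts in PBS and 588 to 682 in hlOSM. Abcc9 fell by 0.24 (limma adjusted p = 0.0188) after mLIF, 0.44 (adjusted p = 1.46e-05) after mOSM and 0.54 (adjusted p = 7.80e-07) after hlOSM. Abcc8, which encodes SUR1, had changes of −0.13 (limma adjusted p = 0.730), −0.87 (adjusted p = 0.00141) and −0.75 (adjusted p = 0.00408). Kcnj8, the other pore gene of such channels, had 6 to 17 normalized counts and no call.

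Kcnk3 (ENSMUSG00000049265, chromosome 5, 30588170 to 30625271, plus strand), which encodes the acid-sensitive background channel TASK-1, had 150, 148 and 158 normalized counts in PBS. The values were 93, 107 and 101 in mLIF, 100, 95 and 103 in mOSM and 81, 74 and 78 in hlOSM. The mLIF and mOSM libraries overlapped below PBS, and hlOSM lay below them. Log2 fold changes were −0.60 (limma adjusted p = 0.000254) after mLIF, −0.61 (adjusted p = 1.55e-05) after mOSM and −0.96 (SE 0.09, adjusted p = 1.92e-08) after hlOSM. Its fall with mLIF, to 66.0% of PBS, was the largest of the 10. Of its exonic bases 5.76% lie opposite Gm9899, a noncoding gene that is named here after its values were seen. Gm9899 had 75 to 101 normalized counts in PBS, 43 to 45 in mLIF, 42 to 53 in mOSM and 25 to 37 in hlOSM, and fell with each cytokine.

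**Figure D3:**
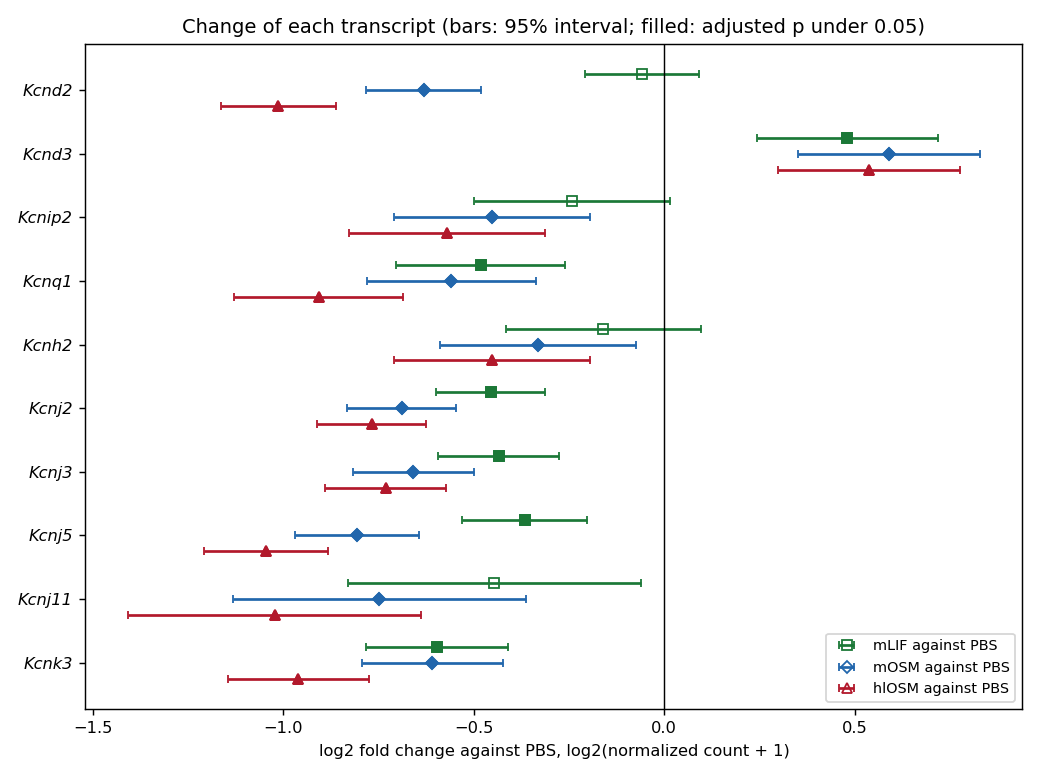
Log2 fold change against PBS (horizontal axis, on the scale of log2(normalized count + 1)) of each of the 10 transcripts for mLIF, mOSM and hlOSM. Bars are 95% intervals from limma and filled symbols mark an adjusted p under 0.05. Kcnd3 lies between 0.48 and 0.59 above 0 with each cytokine, and the other transcripts reach down to −1.05.

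Per exonic kilobase, the order of the 10 transcripts in PBS was led by Kcnj2 with 73.8 ± 7.21 (SD, n = 3) normalized counts per kilobase, Kcnj5 with 64.4 ± 3.84 (SD, n = 3) and Kcnj3 with 54.0 ± 4.93 (SD, n = 3). The libraries of these 3 did not overlap. Levels were divided by the full exon length. Of the exonic bases of Kcnj3, 31.1% lie opposite Gm26794, and the authors left out reads that overlapped more than a single gene. Without a stated strand setting, the level of Kcnj3 may be too low. Its place against Kcnj2 and Kcnj5 is therefore not certain, in PBS or in hlOSM. Kcnd2 (43.8 ± 1.91), Kcnip2 (41.6 ± 8.58) and Kcnk3 (38.2 ± 1.33) followed, where Kcnip2 overlapped with either neighbor. Below them stood Kcnq1 (25.7 ± 1.96), Kcnh2 (22.2 ± 4.22) and Kcnj11 (19.3 ± 3.81), each within the spread of the next, and Kcnd3 (7.96 ± 0.733) was lowest. In hlOSM the order ran from Kcnj2 with 43.2 ± 1.02 (SD, n = 3) to Kcnj11 with 9.25 ± 0.272 (SD, n = 3). Kcnd3, at 11.6 ± 1.57 (SD, n = 3), then lay above Kcnj11, with no overlap of libraries, and its libraries, up to 13.2, met those of Kcnq1 at 13.6 ± 0.705 (SD, n = 3).

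**Figure D4:**
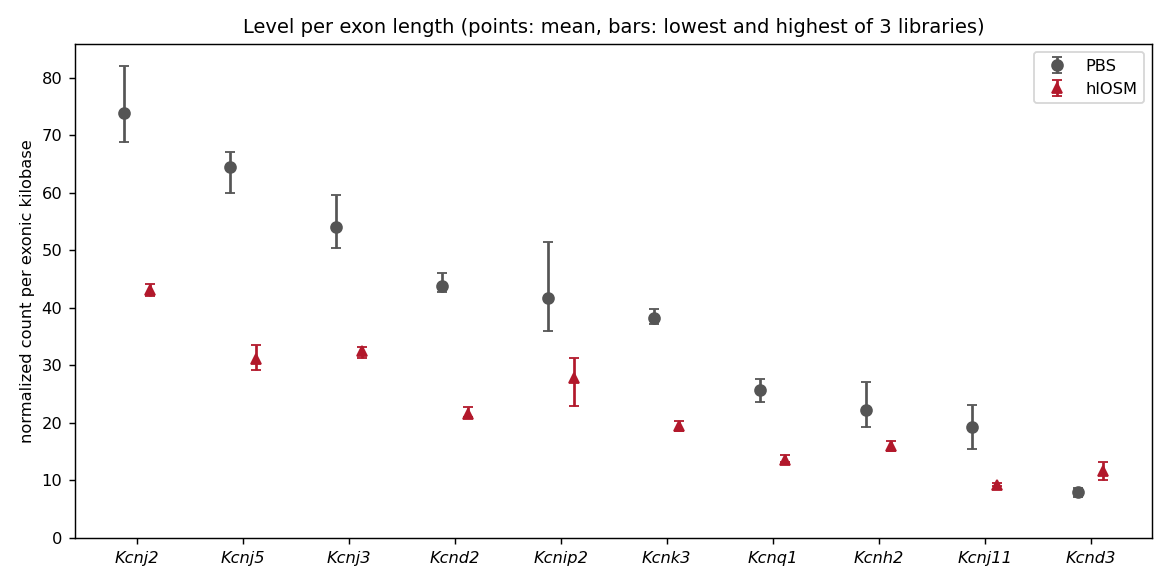
Normalized counts per exonic kilobase (vertical axis, from 0) of the 10 transcripts in PBS and hlOSM, ordered by the PBS mean. Points are means and bars run from the lowest to the highest of 3 libraries. By full exon length, Kcnj2 leads in either condition, at 73.8 in PBS and 43.2 in hlOSM, and the level of Kcnj3 may be too low. Kcnd3 is the only transcript whose hlOSM point lies above its PBS point.

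The comparisons that do not involve PBS asked how the cytokines differ. Against mLIF, mOSM lowered 3 of the 10 transcripts, Kcnd2, Kcnj5 and Kcnj2, where 5.76% of all genes tested were lowered. The differences of Kcnj5 and Kcnj2 were −0.44 (limma adjusted p = 0.000439) and −0.23 (adjusted p = 0.0279). The call of Kcnj2 was lost with the replicate number as a block (adjusted p = 0.0649) and without any one of mLIF replicates 1 to 3 or mOSM replicates 2 and 3 (adjusted p from 0.0601 to 0.117). In 5 transcripts the mOSM libraries lay wholly below mLIF, against 14.1% of all genes tested, and in none wholly above (12.9%). None of the 10 was raised, against 6.05% of all genes. For Kcnk3 and Kcnq1 the difference between mOSM and mLIF was −0.01 (95% interval from −0.20 to 0.17) and −0.08 (from −0.30 to 0.15).

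Against mLIF, hlOSM lowered 7 transcripts, where 9.22% of all genes tested were lowered, and 9 transcripts had no overlap of libraries in that direction, against 17.1% of all genes. None was raised (7.42% of all genes) and none lay wholly above (14.6%). After Kcnd2, the largest differences were those of Kcnj5 (−0.68, limma adjusted p = 1.60e-06), Kcnj11 (−0.58, adjusted p = 0.035) and Kcnq1 (−0.42, adjusted p = 0.0077). Kcnj11 did not pass with the replicate number as a block (adjusted p = 0.065), nor without any one of mLIF replicates 1 and 3 or the 3 hlOSM replicates (adjusted p from 0.0654 to 0.175). Kcnk3, Kcnj2 and Kcnj3 had differences of −0.36, −0.31 and −0.30 with adjusted p of 0.00625, 0.00266 and 0.00916, and the call of Kcnj3 did not hold without mLIF replicate 1 (adjusted p = 0.0703). Kcnip2 and Kcnh2 had differences of −0.33 (limma adjusted p = 0.0753) and −0.29 (adjusted p = 0.116).

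Between hlOSM and mOSM the differences were small and all below 0 in the fit of all libraries, from −0.05 in Kcnd3 to −0.38 in Kcnd2. The sign of Kcnd3 changed without mOSM replicate 1 (0.073) or hlOSM replicate 1 (0.044), and that of Kcnip2 without hlOSM replicate 3 (0.011). Only Kcnd2 passed (SE 0.07, limma adjusted p = 0.0462), among 0.106% of all genes tested that were lowered. That call did not hold with the block (adjusted p = 0.178), nor without any one of the libraries other than PBS replicate 3 and hlOSM replicate 3 (adjusted p from 0.0596 to 0.215). In 4 transcripts, Kcnd2, Kcnj5, Kcnq1 and Kcnk3, the hlOSM libraries lay wholly below mOSM, against 5.62% of all genes tested, and in none wholly above (4.12%). The differences of the last 3 were −0.24 (95% interval from −0.40 to −0.08, limma adjusted p = 0.439), −0.35 (from −0.57 to −0.13, adjusted p = 0.385) and −0.35 (from −0.54 to −0.17, adjusted p = 0.174). For Kcnj2 and Kcnj3, where mOSM and hlOSM overlapped, they were −0.08 (from −0.22 to 0.06) and −0.07 (from −0.23 to 0.09).

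Whether the step from mOSM to hlOSM was like the step from PBS to mLIF was asked by the interaction. It is the difference of hlOSM minus mOSM and mLIF minus PBS. Since hlOSM is a different protein from mOSM, a difference in OSMR activation cannot be told apart from added LIFR activation. None of the 10 passed it in limma, where 0.167% of all genes did (0.0152% above 0 and 0.152% below 0), and 4 of the 10 had an unadjusted p under 0.05, as had 11.5% of all genes tested. In Kcnj2 and Kcnj3 the interaction was 0.38 (limma adjusted p = 0.115) and 0.36 (adjusted p = 0.176). The step from PBS to mLIF was −0.46 and −0.43 in these genes, and the step from mOSM to hlOSM −0.08 and −0.07. In Kcnd3 it was −0.53 (adjusted p = 0.185), with steps of 0.48 and −0.05. In Kcnd2 it was −0.32 (adjusted p = 0.211), with steps of −0.06 and −0.38.

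Other genes of the same channels were taken from a list of 56 potassium channel and HCN pacemaker genes, of which 48 were in the table and 23 passed the filter on low values. With mLIF 1 of the 23 rose and 2 fell, with mOSM 3 rose and 11 fell, and with hlOSM 4 rose and 12 fell. Their median log2 fold changes were −0.13, −0.27 and −0.42. For comparison, the share raised over all genes tested was 5.47% (mLIF), 15.4% (mOSM) and 18.2% (hlOSM). The share lowered was 4.44%, 15.8% and 19.8% in the same order. No such share is given for the stricter filter used next. The 16 genes with at least 10 normalized counts in every library do not include Kcna4, Kcnk2 and Kcnv2. Among those 16 genes, 1 and 1, 3 and 8, and 4 and 9 passed. Hcn4, the main pacemaker channel of the sinus node, rose most among them, from 40, 46 and 62 normalized counts in PBS to 102, 104 and 103 in mLIF, 151, 144 and 127 in mOSM and 197, 171 and 165 in hlOSM. Its log2 fold changes were 1.07 (limma adjusted p = 1.73e-05), 1.51 (adjusted p = 3.39e-09) and 1.85 (adjusted p = 1.07e-10).

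Kcnk2, which encodes the mechanosensitive background channel TREK-1, had 31 to 45 normalized counts in PBS and 39 to 41 in mLIF, but 7 to 13 in mOSM and in hlOSM. Kcnj15, an inward rectifier gene, had 36 to 50 in PBS, 42 to 47 in mLIF, 99 to 125 in mOSM and 104 to 117 in hlOSM. In these genes the mLIF libraries overlapped with PBS (log2 fold changes 0.06 and 0.04), while the changes with mOSM were −1.93 and 1.37, each past the threshold. Kcnk2 reached the minimum of 10 in 8 libraries, of which 6 were the PBS and mLIF libraries, so that it entered the test through the conditions in which it was high. Kcne4, whose product inhibits several Kv channels, rose by 0.84 (limma adjusted p = 0.00346) after mOSM and 0.80 (adjusted p = 0.00445) after hlOSM, at 10 to 20 normalized counts. Kcnn2, a calcium-activated channel gene, fell by 0.59 with mOSM and 0.93 with hlOSM. Kcnt2 fell by 0.60 and 1.06, Kcna7 by 0.56 and 0.49, and Kcnv2, with at most 18 normalized counts, by 1.32 and 1.73 and reached the minimum of 10 in no mOSM or hlOSM library. Kcna4, the Kv1.4 gene of the slow transient outward current, went from 11 to 14 normalized counts in PBS to between 2 and 6 in all cytokine libraries and entered the test only through PBS, so that it could not have entered without being higher there. Among the remaining partners of the 10, Kcnd1 had 4 to 8 and Kcne3 at most 3 normalized counts and were not tested. Kcnip3 had 4 to 11 and no call. Kcne2, Kcnip1, Kcnip4, Dpp6 and Dpp10 were looked for by name and not found in the table.

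**Figure D5:**
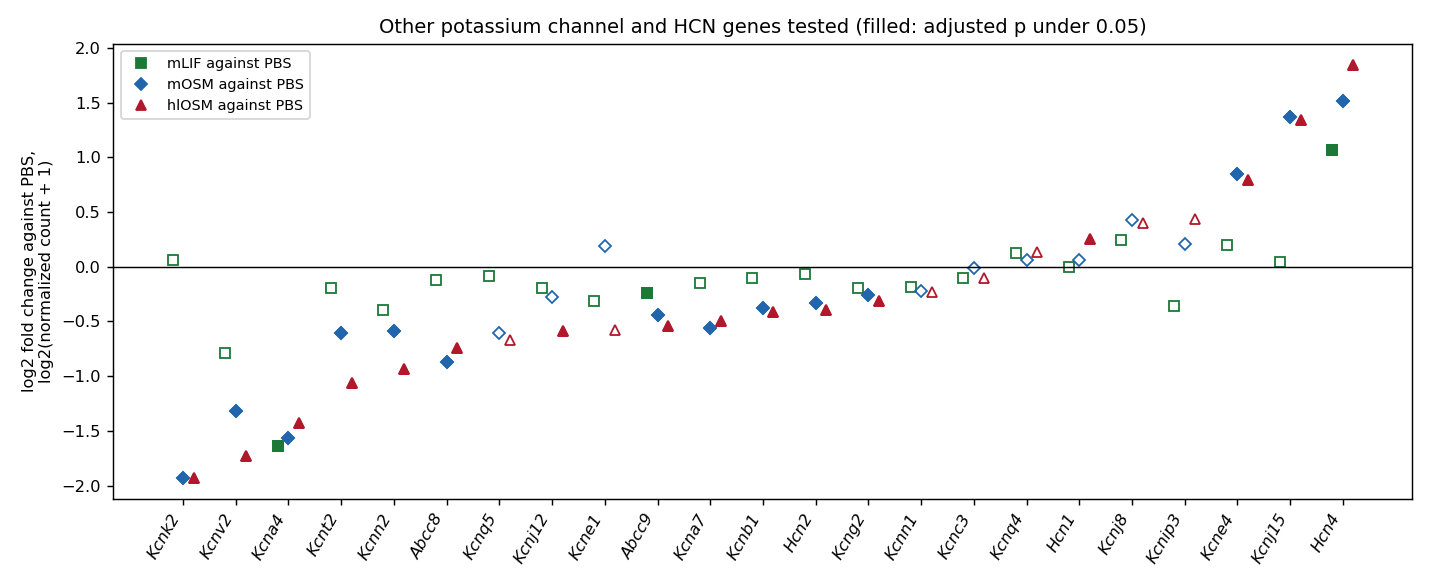
Log2 fold change against PBS (vertical axis, on the scale of log2(normalized count + 1)) of the 23 other potassium channel and HCN genes tested, ordered by the hlOSM value. Symbols mark mLIF, mOSM and hlOSM, and filled ones an adjusted p under 0.05. Values run from −1.93 in Kcnk2, which passed the filter through PBS and mLIF, to 1.85 in Hcn4, and the mLIF symbols of Kcnk2 and Kcnj15 stay near 0.

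Among 18 regulators and scaffolds of these channels, mLIF lowered 2, mOSM raised 2 and lowered 10, and hlOSM raised 1 and lowered 9. Of all genes tested, mLIF lowered 4.44%, mOSM raised 15.4% and lowered 15.8%, and hlOSM raised 18.2% and lowered 19.8%. Median log2 fold changes of the 18 were −0.08, −0.20 and −0.23. Irx3, a homeobox factor of the ventricular conduction system, had 154, 156 and 194 normalized counts in PBS and between 86 and 110 in all cytokine libraries. It fell by 0.63 (limma adjusted p = 0.000499), 0.70 (adjusted p = 1.52e-05) and 0.76 (adjusted p = 3.72e-06) after mLIF, mOSM and hlOSM. Irx5, known as a repressor of Kcnd2 in the ventricle, had 46 to 59 normalized counts in PBS and 33 to 44 in hlOSM (−0.46, limma adjusted p = 0.0129) and no call with mLIF or mOSM. Klf15, known to drive Kcnip2, had 20 to 28 normalized counts in PBS, 21 to 28 in mLIF, 12 to 14 in mOSM and 11 to 13 in hlOSM. Its log2 fold changes were 0.06 (limma adjusted p = 0.892), −0.85 (adjusted p = 0.00328) and −0.95 (adjusted p = 0.000946). Of the scaffolds, Flna fell by 0.55 with mOSM and 0.62 with hlOSM, Dlg1 by 0.21 and 0.24 and Akap9 by 0.22 and 0.20. Cav3 rose by 0.23 (limma adjusted p = 0.00779) and 0.26 (adjusted p = 0.0024). Nfatc4 rose by 1.13 with mOSM (limma adjusted p = 0.00406), but was below the minimum of 10 in all PBS libraries and entered the test through the cytokine libraries. Among the transcription factors, Tbx5 fell by 0.36 and 0.55 and Gata4 by 0.19 and 0.23 with mOSM and hlOSM. Tbx20 fell by 0.38 and Irx4 by 0.43 with mOSM and had no call with hlOSM.

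The genes whose values ran most alike over the 12 libraries were sought among 8661 other genes with a mean of at least 50 normalized counts, by Pearson's correlation of log2 values. This is a description, since the best of so many is high by choice and the libraries differ by condition. Kcnj2 was most alike to Adcy6 (r = 0.993), an adenylyl cyclase gene, Kcnj3 to Lbh (0.993) and Kcnj5 to Asb15 (0.991), a muscle gene of the ubiquitin system. Kcnq1 was most alike to Spata1 (0.987), Kcnj11 to Zfp385b (0.985), Kcnd2 to Cnn2 (0.982), a calponin gene, and Kcnk3 to Myzap (0.980), a gene of the intercalated disc. Kcnip2 was most alike to Kiz (0.976), Kcnd3 to Lig4 (0.961) and Kcnh2 to Dock8 (0.940). Asb15 went from 283 normalized counts in PBS to 166, 94.7 and 63.7 in mLIF, mOSM and hlOSM.

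Cardiomyocyte markers were also lower in the cytokine libraries. Of the 8 cardiomyocyte markers, mLIF lowered 5, mOSM 7 and hlOSM 7, where 4.44%, 15.8% and 19.8% of all genes tested were lowered. Their median log2 fold changes were −0.21, −0.28 and −0.31. The rescaling used the mean log2 value of these markers in each library, a choice made after seeing the data, and Kcnd3 was still raised with each cytokine. All genes tested then had a median log2 fold change of 0.33, 0.31 and 0.21 for hlOSM, mOSM and mLIF, 5.64%, 4.16% and 0.652% of them were lowered and 53.3%, 51.2% and 22.8% raised, so that the rise of Kcnd3 in this scaling is one that many genes share. The transcripts still lowered with hlOSM were Kcnd2 (−0.68), Kcnj5 (−0.71), Kcnj11 (−0.69), Kcnk3 (−0.62), Kcnq1 (−0.57), Kcnj2 (−0.43) and Kcnj3 (−0.39). Those lowered with mOSM were Kcnd2, Kcnj2, Kcnj3, Kcnj5 and Kcnk3, and Kcnk3 was the one lowered with mLIF.

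Markers of other cells were present at lower sums, none of them at 0 in all libraries. The 7 endothelial markers summed to 1142 to 1213 normalized counts in PBS, 1404 to 1619 in mOSM and 1411 to 1531 in hlOSM, with 5 of 7 raised by mOSM and by hlOSM. The 6 mural cell markers went from 932 to 1128 in PBS to 620 to 643 in hlOSM, with 5 of 6 lowered by mOSM and 6 by hlOSM. The 8 fibroblast markers summed to 2296 to 2526 in PBS and 2307 to 2540 in hlOSM (3 raised, 5 lowered), the 6 leukocyte markers to 303 to 326 and 320 to 390 (1 raised, 1 lowered), and the 4 glial markers to 30 to 40 and 13 to 25. The 4 ventricular markers summed to 1294 to 1449 in PBS and 1197 to 1262 in hlOSM, with no call for hlOSM. With mOSM, Irx4 alone of them was lowered (log2 fold change −0.43, limma adjusted p = 0.0156). Of all genes tested, mOSM raised 15.4% and lowered 15.8%, and hlOSM raised 18.2% and lowered 19.8%. The part of these cells in the values of the channel transcripts was not tested.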

How the data were processed

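RNA of primary cardiomyocytes was sequenced in 12 libraries, and each library's condition (3 libraries in each) and number follow its title. The authors aligned trimmed reads to mm10 with STAR 2.7.7a and counted reads in exons of a single gene with featureCounts 1.6.5. The deposited values are scores on a normalized count scale, rounded to whole numbers by the authors. How they were normalized and whether strand was used are not given in the sources used here. The potassium channel genes and all lists were chosen with earlier results of these data known.

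The fit used limma 3.58.1 (R 4.3.3, empirical Bayes with a trend) on log2(normalized count + 1) of 13184 genes with a value of at least 10 in at least 3 libraries, without a block, and was tested on simulated data. Exon lengths and overlaps come from GENCODE M21 and promoter windows from RefSeq, all on GRCm38. Alternatives were other pseudocounts, filters and scalings, a robust fit, the 6 libraries of a comparison alone, a block for the replicate number, and leaving out single libraries. Genes named beside the 10 were their assembly partners, up to 8 further channel genes with the largest changes, regulators and scaffolds, Kcnq1ot1 and the most alike gene of each.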

Additional observations from a re-analysis of the deposited data

How the results depend on the processing

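Same-numbered libraries of different conditions did not deviate together (correlations of their deviations from the condition means from −0.518 to 0.0221 over 18 pairs, against −0.119 to 0.481 over 36 pairs of other numbers), and over 6626 genes the means of replicates 3 and 1 differed with an SD of only 0.0019 on the log2 scale, which is the pattern that removing replicate means before deposit would leave. No such step is given in the sources used here. Such a removal would push the correlations of same-numbered libraries below 0 whether or not they were paired, so they cannot decide on pairing. The numbers were not used as a block in the fit reported, since the study names no block. If such a step was made, that fit has too many degrees of freedom, its p-values are too small, and the block is the more cautious fit. Under a replicate block, the count of the 10 transcripts lowered by hlOSM against mOSM went from 1 to 0, as it did with no filter on low values, with the 6 libraries of that comparison alone, and with rescaling to the cardiomyocyte markers. That rescaling, chosen after seeing the data, also took the transcripts lowered against PBS to 1 with mLIF and 5 with mOSM, and those lowered against mLIF to 2 with hlOSM and 1 with mOSM, where 3.25% and 2.11% of all genes tested were lowered. Of the other channel genes, 1, 4 and 5 were then lowered by mLIF, mOSM and hlOSM. In this scaling the shares lowered over all genes tested were 0.652%, 4.16% and 5.64%. With a minimum of 50 normalized counts, 1, 5 and 6 of the other channel genes were lowered, where fewer of them were tested. That filter left 9086 genes to test, and no share over all genes is given for it here. Without single libraries, mLIF raised 0 to 1 of the 10, hlOSM lowered 0 to 1 against mOSM, and mLIF lowered 0 to 2 of the other channel genes.

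Some differences without a call changed sign. With the marker rescaling these were mLIF against PBS in Kcnd2 (0.15) and Kcnh2 (0.052), mOSM against mLIF in Kcnq1 (0.028) and Kcnk3 (0.092), and the interaction in Kcnip2 (−0.069), Kcnj5 (−0.067), Kcnj11 (−0.022), Kcnh2 (−0.15) and Kcnq1 (−0.060). Without single libraries Kcnd3 ranged from −0.15 to 0.073 for hlOSM against mOSM, −0.039 to 0.15 for hlOSM against mLIF and −0.015 to 0.18 for mOSM against mLIF. Kcnip2 ranged from −0.21 to 0.011 for hlOSM against mOSM, Kcnq1 from −0.12 to 0.0095 and Kcnk3 from −0.066 to 0.034 for mOSM against mLIF. The interaction ranged from −0.039 to 0.25 in Kcnip2, −0.054 to 0.32 in Kcnj11 and −0.11 to 0.15 in Kcnh2. The cause was not tested. Kcnip2 gained a call for hlOSM against mLIF with only the 6 libraries of that comparison (adjusted p = 0.0399), without PBS replicate 3 (0.0312) and without hlOSM replicate 1 (0.0429), and Kcnj3 for mOSM against mLIF with quantile normalization (0.0227) and without PBS replicate 3 (0.0395). Depth could not be judged, since the values are normalized.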
